A study of Mus musculus with 6 samples.

Results

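The high mobility group (HMG) chromatin proteins were examined in mouse embryo fibroblasts (MEFs) with and without MCM8, as the 9 genes Hmgn1, Hmgn2, Hmgn3, Hmgn5, Hmga1, Hmga2, Hmgb1, Hmgb2 and Hmgb3 among the 55565 genes of the deposited tables. They were found by gene symbol, and the family was selected on the counts of Hmgn2, which were higher in KO than in WT MEFs. The difference of Hmgn2 between genotypes is therefore given as a description without a test, and the other 8 genes follow from the family name. WT (Mcm8+/+) and KO (Mcm8-/-) MEFs were each represented by 3 RNA-seq libraries, named WT1 to WT3 and KO1 to KO3. Both came from day E13.5 embryos of Mcm8+/- parents of mixed C57BL/6J and ICR background, and the KO allele is a CRISPR deletion of a stretch of Mcm8 that includes exon 7. Only embryo trunk was cultured, and the methods describe immortalization of MEFs with a lentivirus carrying an SV40 gene and selection with puromycin. The libraries are called biological repeats, but no source used here says whether they were separate embryos or cultures. P-values therefore apply to these libraries and cannot be read as covering the spread between embryos. Those from the count test over all genes use a spread shared by genes of like level, not each gene's own.

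HMG proteins are small, abundant non-histone proteins that bind chromatin and fall into families with unrelated binding domains. HMGN proteins bind the nucleosome itself through a short conserved core and compete with linker histone H1, HMGA proteins hold the minor groove of AT-rich DNA with AT hooks, and HMGB proteins bend DNA with HMG boxes. Hmga2 and, in many tissues, Hmgb2 and Hmgb3 are known as genes of embryonic and proliferating cells. Several of these genes have left many processed retrocopies, intronless copies of their mRNA, elsewhere in the mouse genome.

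Hmgn2 lies on chromosome 4 (133692049 to 133695961, minus strand, protein-coding; deposited coordinates, GRCm39 by the methods). Its coding sequence, which its retrocopy Hmgn2-ps shares, is shown because the counts of the family turn on this pair. All sequences are those of spliced transcripts in GENCODE M21 (GRCm38), written along the coding strand. It is 273 bases long with its stop codon, and that of Hmgn2-ps was the same at every base. Capitals mark the 24 bases of the nucleosome-binding core.
Hmgn2: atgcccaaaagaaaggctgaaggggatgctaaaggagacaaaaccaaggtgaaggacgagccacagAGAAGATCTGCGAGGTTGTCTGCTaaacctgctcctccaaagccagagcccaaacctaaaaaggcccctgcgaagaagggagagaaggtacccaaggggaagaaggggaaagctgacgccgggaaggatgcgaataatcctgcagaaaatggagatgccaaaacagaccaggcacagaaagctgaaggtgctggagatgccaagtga

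All 4 HMGN genes encode the core, and the stretch around it is shown for each to let the genes be told apart. Between the cores, Hmgn1 matched Hmgn2 at 16 of the 24 bases, Hmgn3 at 18 and Hmgn5 at 19. Capitals again mark the core, with 18 coding bases on each side, and none of the windows of the other genes is identical to that of Hmgn2.
Hmgn1: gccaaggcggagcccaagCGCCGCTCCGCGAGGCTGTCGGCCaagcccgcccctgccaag
Hmgn2: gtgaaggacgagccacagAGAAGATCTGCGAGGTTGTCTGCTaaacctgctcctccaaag
Hmgn3: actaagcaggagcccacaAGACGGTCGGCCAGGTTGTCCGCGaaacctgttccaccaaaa
Hmgn5: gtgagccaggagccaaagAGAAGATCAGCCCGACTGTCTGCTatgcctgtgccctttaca

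The 2 copies with counts that carry the name of Hmgn2 differ in how much of the mRNA they hold. Hmgn2-ps lies on chromosome 8 (73057954 to 73059104) and is listed as protein-coding, and its 1151 bases aligned to the spliced Hmgn2 transcript of 1265 bases with an identity of 99.3%. Hmgn2-ps differed by 6 substitutions and held 2 extra bases, whose exact place the alignment does not fix. None of these differences was in the coding sequence, and the longest stretch without a difference was 461 bases. Hmgn2-ps1 lies on chromosome 5 (84271172 to 84271450), is listed as a processed pseudogene and covers the coding part alone. It matched the 273 coding bases of Hmgn2 throughout, apart from 6 extra bases that are shown in capitals beside the same stretch of Hmgn2.
Hmgn2: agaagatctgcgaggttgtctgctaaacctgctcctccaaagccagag
Hmgn2-ps1: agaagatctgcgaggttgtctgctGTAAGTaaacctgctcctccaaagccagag

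**Figure D1:**
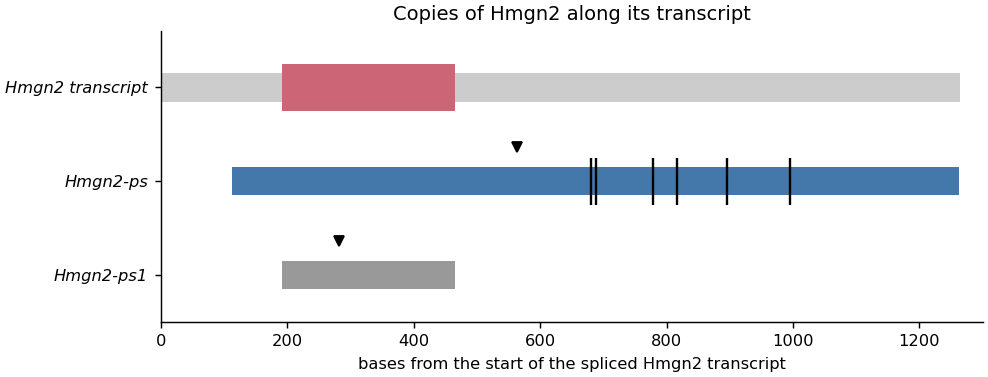
The spliced Hmgn2 transcript (grey bar, coding sequence in red) and the parts of it that Hmgn2-ps (blue) and Hmgn2-ps1 (grey) match, against the distance in bases from the transcript's start. Black lines are the 6 substitutions of Hmgn2-ps, and the triangles mark the 2 extra bases of Hmgn2-ps, as the alignment placed them, and the 6 extra bases of Hmgn2-ps1. Every difference of Hmgn2-ps lies after the coding sequence.

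How far a read could tell a gene from its copies was measured on transcripts of GENCODE M21, as the share of a gene's 150-base windows (the length of 1 read) found unchanged in a transcript of any other gene. It was 38.5% for Hmgn2, or 430 of 1116 windows, and every one of these 430 was in Hmgn2-ps. It was higher for Hmga1, at 51.9%, where all 962 shared windows were in the retrocopy Hmga1b. Hmgb1 had 24.2% of its windows in another gene, spread over 26 genes, and Hmgb2 had 16.9%. Hmgn3 (12.7%), Hmgb3 (10.2%) and Hmgn5 (8.07%) shared less, Hmgn1 shared 1 window of 2025, and Hmga2 shared none of 3561. The shared windows of Hmgn3 were all in Gm29054, a listed gene whose span overlaps that of Hmgn3, and no copy of Hmgn3 was found. The counts of Hmgn2, Hmga1 and Hmgb1 are thus uncertain as to which copy they belong to, while those of Hmga2 and Hmgn1 were the best resolved.

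Counts are given as CPM (counts-per-million, with TMM scaling between libraries), which compare 1 gene between libraries and give a share of the RNA sequenced. In bulk RNA, fewer cells of a type and less RNA per cell cannot be told apart. The libraries held from 12722979 (WT1) to 21022755 (KO1) counts. Mcm8, the targeted gene, fell from 13.8, 16.6 and 12.8 CPM in WT to 4.20, 4.45 and 4.12 CPM in KO. All 10 fibroblast markers looked at had at least 1 CPM in the mean of the libraries, 3 of them higher and 3 lower in KO at an adjusted p below 0.05 (Benjamini-Hochberg, edgeR), with Thy1 past 2-fold lower. Of all genes tested, 4.97% were higher and 4.03% lower, and of those with at least 10 CPM 17.1% were called. The groups also differed in sex-linked genes: Xist, the RNA of the inactive X chromosome, had 940.3 to 1359 CPM in WT and 474 to 494 CPM in KO, and the 4 Y-linked genes tested were all higher in KO. The mesothelial marker list summed to 2.69 to 3.23 FPKM in WT and 17.1 to 19.7 FPKM in KO, mostly through Msln, with Lrrn4 at 0 and 2 of the 5 tested markers higher in KO. The part of these differences in the results on the HMG genes was not tested.

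Of the HMGN genes, which bind nucleosomes, Hmgn2 stood apart between the genotypes. WT1, WT2 and WT3 held 176, 224 and 272 counts of it, and KO1, KO2 and KO3 held 1681, 1053 and 1068. In CPM these were 13.8, 15.97 and 14.6 in WT and 79.4, 63.3 and 66.7 in KO. The highest WT library lay far under the lowest KO library. The mean was 4.72-fold higher in KO (69.8 ± 8.46 against 14.8 ± 1.10 CPM, SD, n = 3), a log2 fold change of 2.24. Leaving out any single library kept it between 2.14 and 2.31. This range describes the counts on which the family was selected and does not test them.

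The 3 other HMGN genes gave no such difference. Hmgn1, the most expressed of them, had 480.1, 379 and 407.5 CPM in WT and 434, 432 and 412 CPM in KO. The KO libraries lay within the range of the WT libraries (log2 fold change 0.01, 95% interval -0.12 to 0.14, adjusted p = 0.94). Hmgn3, a member with splice forms that differ at the protein's end, had 23.0, 23.7 and 20.3 CPM in WT and between 20.86 and 21.01 CPM in KO (log2 fold change -0.09, interval -0.30 to 0.12, adjusted p = 0.68). Hmgn5, an X-linked member with a long acidic tail, had 16.3 to 19.8 CPM in WT and 18.4 to 20.1 CPM in KO (log2 fold change 0.11, interval -0.12 to 0.33, adjusted p = 0.68). For each of the 3 genes the interval excluded a change of 2-fold in either direction.

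**Figure D2:**
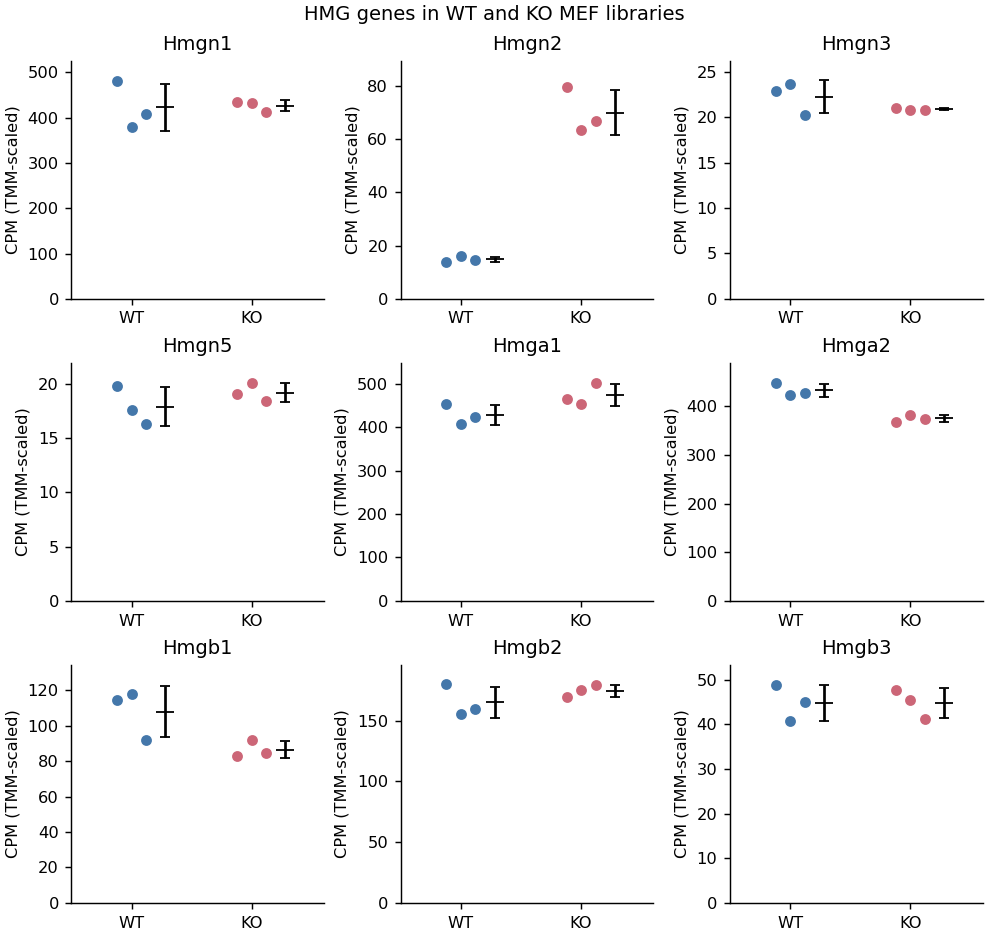
TMM-scaled CPM of the 9 HMG genes in each WT (blue) and KO (red) library, from left to right in the order of library number, with the mean and SD of 3 libraries beside them; each panel has its own axis from 0. Hmgn2 rises from 13.8 to 15.97 CPM in WT to 63.3 to 79.4 CPM in KO, Hmga1 and Hmga2 separate by far smaller steps, and the groups of the other 6 genes overlap.

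Of the HMGA genes, which bind AT-rich DNA, Hmga2 was lower in KO. Hmga2 lies on chromosome 10 (120197180 to 120312374) and is known for its high level in the embryo and its silencing after birth. It had 448, 423 and 427 CPM in WT and 368, 382.5 and 375 CPM in KO. All KO libraries were below all WT libraries, and the KO mean was 86.6% of the WT mean (log2 fold change -0.21, SE 0.07, adjusted p = 0.025). The call was lost when KO1 (adjusted p = 0.23), KO2 (0.097) or KO3 (0.17) was left out, while the log2 fold change stayed between -0.22 and -0.18.

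Hmga1 did not pass the test. It lies on chromosome 17 (27775471 to 27782648) and, like Hmga2, encodes an AT-hook protein that is abundant in proliferating cells. Its libraries had 452, 407 and 423 CPM in WT and 465, 454 and 502 CPM in KO. The groups did not overlap, but WT1 and KO2 nearly touched, and the log2 fold change of 0.15 (SE 0.07) had an adjusted p of 0.18. Without WT1 it was 0.19, with an adjusted p of 7.2e-05. The retrocopy Hmga1b, which aligned to Hmga1 over 1538 bases with 3 substitutions and is listed as protein-coding, had 34.4 to 49.1 CPM in WT and 41.3 to 49.6 CPM in KO (log2 fold change 0.13, adjusted p = 0.50). Without WT1 it too was called (log2 fold change 0.27, adjusted p = 0.014). Hmga1 held 90.2% to 92.2% of the sum of both rows in every library, with overlapping groups.

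Of the HMGB genes, which bend DNA, Hmgb1 was lower in KO in the fit, with overlapping groups. Hmgb1 lies on chromosome 5 (148983512 to 149121299), and its protein is a nuclear DNA chaperone and, when released, an alarm signal to immune receptors. It had 114, 118 and 91.7 CPM in WT and 82.9, 92.0 and 84.4 CPM in KO. WT3 lay just under KO2, so the groups overlapped (exact permutation p = 0.2), and WT1 and WT2 were above all KO libraries. Summed with the copies of the wider search below, its level in KO was 0.938-fold of WT, again with overlap. The log2 fold change was -0.32 (SE 0.08, adjusted p = 6.8e-04), and the adjusted p stayed between 1.6e-05 and 0.047 under the alternatives. Its span is overlapped by 7 other listed genes, the fullest of which had up to 1080 counts in a library, and whether reads were counted by strand is not given in the sources used here.

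Hmgb2 and Hmgb3 differed by less than the test could call. Hmgb2, whose protein is a marker of dividing cells, had 180, 155 and 159.9 CPM in WT and 169, 175.5 and 179 CPM in KO (log2 fold change 0.08, interval -0.06 to 0.22, adjusted p = 0.61). Its call depended on 1 library: without WT1 it was 0.15, with an adjusted p of 0.035. Hmgb3, an X-linked member, had 40.8 to 48.8 CPM in WT and 41.2 to 47.8 CPM in KO (log2 fold change -0.0014, interval -0.17 to 0.17, adjusted p = 0.99).

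Of the 8 genes other than Hmgn2, none was called higher and 2 were called lower in KO. Across all 26898 genes tested, 4.97% were higher and 4.03% lower at the same threshold, and 1.75% were higher and 0.665% lower with a fold change above 2 as well, which none of the 8 reached. Among the 9378 genes with at least 10 CPM, as all 8 have, 17.1% were called in either direction, so 2 of 8 was not far from the level of well-expressed genes. The median absolute log2 fold change was 0.10 over the 8 genes and 0.11 over those 9378. Groups did not overlap for 2 of the 8 genes (Hmga1 and Hmga2) and for 21.6% of all genes tested. With WT1 left out, 5 of the 8 were called, Hmga1, Hmgb2 and Hmgn1 as higher. Calls over all 26898 genes also rose without WT1, from 1337 to 1644 higher and from 1083 to 1620 lower. Permuting 3 against 3 libraries allows no two-sided exact p under 0.1, which Hmga1 and Hmga2 had, while Hmgb1 had 0.2.

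**Figure D3:**
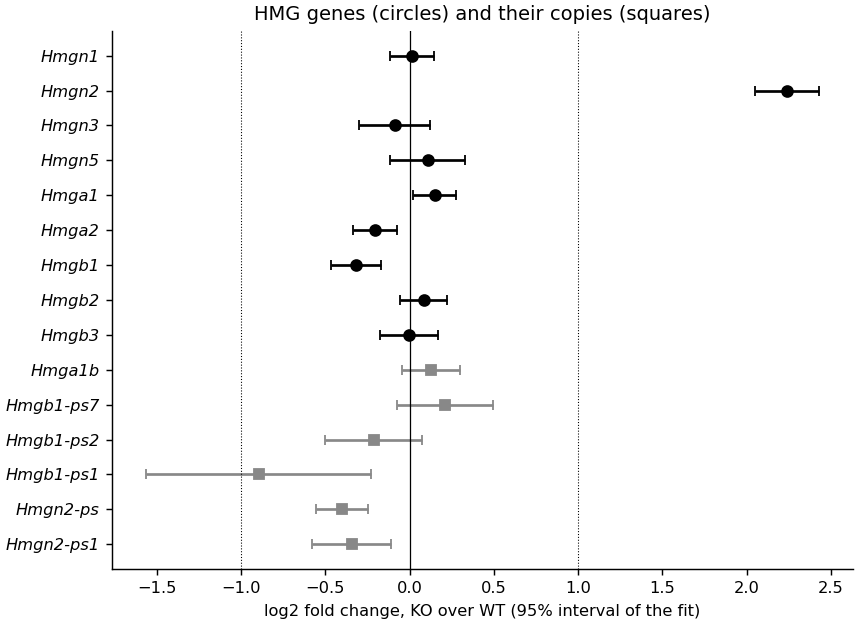
Log2 fold change of KO over WT with its 95% interval for the 9 HMG genes (circles) and the copies with at least 1 CPM that carry their names (squares); dotted lines mark a 2-fold change in either direction. Hmgn2 is at 2.24 while the 8 other genes lie between -0.32 and 0.15, and both named copies of Hmgn2 lie on the other side of 0 from it. The interval of Hmgn2 is not a test, as the family was selected on its counts.

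The named copies of Hmgn2 had more counts than the gene itself in WT. Hmgn2-ps had 92.2, 69.3 and 92.7 CPM in WT and 52.1, 74.5 and 66.3 CPM in KO. It was lower in KO in the fit (log2 fold change -0.40, SE 0.08, adjusted p = 1.3e-05), but KO2 lay above WT2, and the call was lost without KO1 (log2 fold change -0.27, adjusted p = 0.095) and with the filterByExpr filter of edgeR (adjusted p = 0.052). Hmgn2-ps1 had 19.7, 17.8 and 16.5 CPM in WT and 13.2, 17.5 and 11.7 CPM in KO, again with overlap (log2 fold change -0.34, adjusted p = 0.048, up to 0.53 under the alternatives). The remaining copy by this rule, Hmgn2l6, was at 0 in every library.

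Summed over the 3 rows, the difference was much smaller than for Hmgn2 alone. In WT1, WT2 and WT3 it came to 126, 103 and 124 CPM, and in KO1, KO2 and KO3 to 145, 155 and 145 CPM. All KO libraries were above all WT libraries, and the mean was 1.26-fold higher in KO (148 ± 6.17 against 117.5 ± 12.6 CPM), compared with 4.72-fold for the Hmgn2 row. From WT to KO the Hmgn2 row gained 55.0 CPM and its copies together lost 24.3 CPM, a net gain of 30.7 CPM. With only Hmgn2-ps added, the copy that matches most of the mRNA, it ranged from 85.2 to 107 CPM over the WT and from 131 to 138 CPM over the KO libraries, 1.35-fold higher.

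The share of these counts that went to Hmgn2 lay apart between the genotypes. It holds the counts on which the family was selected, so it is a description without a test. It was 10.98% (95% Wilson interval 9.54 to 12.6), 15.5% (13.7 to 17.5) and 11.8% (10.5 to 13.2) in WT1, WT2 and WT3. In KO1, KO2 and KO3 it was 54.9% (53.1 to 56.6), 40.8% (38.9 to 42.7) and 46.1% (44.1 to 48.1). The intervals, which cover counting error only, overlapped between WT1 and WT3, while that of WT2 lay above both and those of the KO libraries lay apart from one another. Among the KO libraries, KO1 had the most Hmgn2 and the least Hmgn2-ps, and KO2 the least Hmgn2 and the most Hmgn2-ps. How reads that match both copies were assigned is not given in the sources used here, and in gene counts a change in the level of Hmgn2 mRNA and a change in where its reads were placed cannot be told apart.

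**Figure D4:**
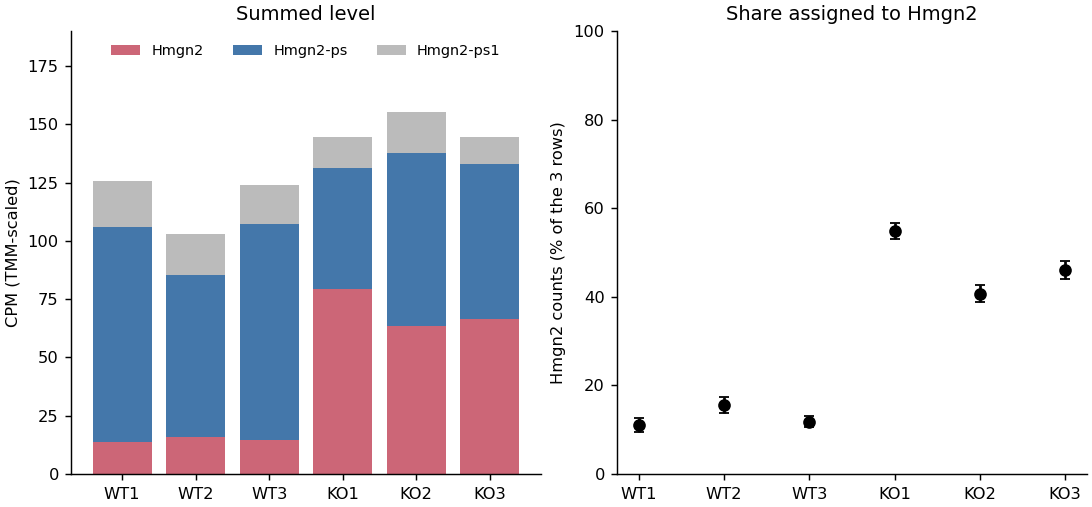
Left, TMM-scaled CPM of Hmgn2 (red), Hmgn2-ps (blue) and Hmgn2-ps1 (grey) stacked for each library. Right, the counts of Hmgn2 as a percentage of the counts of the 3 rows, with 95% Wilson intervals. The stacks reach 103 to 126 CPM in WT and 145 to 155 CPM in KO, while the red part grows from 10.98% to 15.5% of the counts in WT to 40.8% to 54.9% in KO.

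No named copy of the other genes was called with all libraries. By name or description, Hmgb1 had 14 copies, 10 of them with counts. Of these, 3 had at least 1 CPM: Hmgb1-ps7 with 8.21 to 10.97 CPM in WT and 10.3 to 11.4 CPM in KO, Hmgb1-ps2 with 8.64 to 12.1 and 7.87 to 9.54 CPM, and Hmgb1-ps1 with 1.07 to 3.99 and 0.944 to 1.44 CPM. Their adjusted p were 0.49, 0.49 and 0.083. The difference of Hmgb1-ps1 turned on WT2, which held 56 counts of it against 20 to 23 in the other libraries: the log2 fold change of -0.89 became -0.17 without WT2 (adjusted p = 0.88), and it was called without WT1 (-1.05, adjusted p = 0.024) or WT3 (-1.26, adjusted p = 0.0064). Summed with its 14 copies, Hmgb1 was 0.827-fold of WT in KO, against 0.801-fold for its own row, and the groups again overlapped. Hmgb3 had 1 copy by name, which was at 0, and Hmgn1, Hmgn3, Hmgn5, Hmga2 and Hmgb2 had none by this rule.

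A wider search, added after the values were seen, took rows whose description cites the protein's UniProt entry. It raised the number of copies of Hmgb1 to 170, of which 59 had counts and 9 at least 1 CPM. Among the copies it added, Gm5518 on chromosome 19 with 69.2 to 75.4 CPM in WT and 73.5 to 85.9 CPM in KO, and Gm5527 on chromosome 1 with 19.2 to 33.2 and 28.9 to 32.2 CPM, had the most counts and were not called (adjusted p = 0.52 and 0.47), though Gm5527 was without WT1 (log2 fold change 0.29, adjusted p = 0.024). With all of them Hmgb1 summed to 259 ± 16.2 CPM over WT libraries and to 242 ± 11.6 CPM over KO libraries, 0.938-fold, and Hmgb1 itself held 37.9% to 45.5% of it in WT and 33.2% to 38.1% in KO. The same search gave Hmgn2 26 copies, 4 with at least 1 CPM, and left its sum 1.24-fold higher in KO.

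Levels of different genes were compared in FPKM, which divide counts by the deposited gene length. In WT the order was Hmga1 (200.3 ± 11.1 FPKM), Hmgn1 (131 ± 16.5), Hmga2 (63.7 ± 2.17), Hmgb2 (54.7 ± 4.46), Hmgb1 (21.4 ± 2.92), Hmgb3 (20.02 ± 1.81), Hmgn3 (11.9 ± 1.01), Hmgn5 (9.22 ± 0.97) and Hmgn2 (4.81 ± 0.36). Only the libraries of Hmgb1 and Hmgb3 overlapped between neighbours in this order. In KO, Hmgn2 (22.7 ± 2.72 FPKM) stood at rank 5, its libraries overlapping those of Hmgb3 (19.9 ± 1.48), and Hmgb2 (57.9 ± 1.69) overlapped Hmga2 (55.1 ± 1.17). The deposited lengths are those of whole gene models and exceed the spliced transcript by unequal ratios, the highest of the 9 for Hmgn2 (3060 against 1265 bases), while for Hmgn5 both are 1934 bases. Divided by transcript length instead, a choice made after the values were seen, Hmgn2 (11.6 ± 0.87) stood above Hmgn5 (9.22 ± 0.97) in WT, at rank 8, with their libraries apart. In KO it kept rank 5, now above Hmgb1 and Hmgb3 without overlap, and Hmga2 stood above Hmgb2. Hmgn2-ps, with 1151 bases, had 60.1 to 80.1 FPKM in WT and 45.0 to 64.6 FPKM in KO.

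Summed by family, the FPKM of WT and KO libraries overlapped. HMGA genes summed to 264 ± 13.2 FPKM in WT and 277 ± 11.5 FPKM in KO (exact permutation p = 0.30), and HMGB genes to 96.2 ± 7.29 and 94.98 ± 1.602 FPKM (exact permutation p = 1.0). HMGN genes summed to 156.5 ± 17.1 and 175 ± 5.57 FPKM, with overlap, and without Hmgn2 to 152 ± 17.4 and 153 ± 4.14 FPKM (exact permutation p = 1.0). Within the HMGA and HMGB families the shares of WT and KO libraries lay apart for Hmga1 and Hmgb2, whose shares were higher in KO, and for Hmga2 and Hmgb1, whose shares were lower. Shares within a family sum to the whole, so those of Hmga1 and Hmga2 mirror each other and those of Hmgb2 and Hmgb1 are tied. Hmga1 made up 75.4% to 76.3% of HMGA FPKM in WT and 79.1% to 81.0% in KO, and Hmgb2 made up 55.4% to 58.1% of HMGB FPKM in WT and 59.8% to 62.9% in KO. Hmga2 made up 24.1% ± 0.44 of HMGA FPKM in WT and 19.9% ± 0.96 in KO, and Hmgb1 made up 22.3% ± 2.63 of HMGB FPKM in WT and 18.03% ± 0.74 in KO. Hmgn2 made up 2.56% to 3.61% of HMGN FPKM in WT and 11.7% to 14.3% in KO, which leaves out its copy. In FPKM, Hmgn2 and Hmgn2-ps together came to 78.1 ± 11.1 in WT and 78.3 ± 7.25 in KO, with overlap, while in CPM, which do not divide by the unequal lengths of the pair, their sum was 1.35-fold higher in KO.

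**Figure D5:**
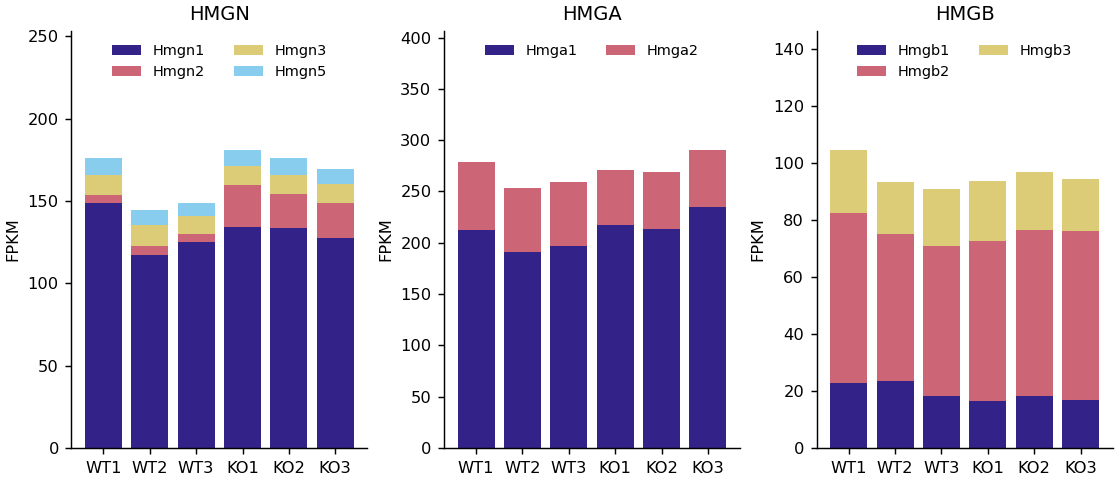
Deposited FPKM of the HMGN, HMGA and HMGB genes, stacked by gene for each library; the panels have their own axes from 0. Hmgn1, Hmga1 and Hmgb2 make up most of their families in every library, and the Hmgn2 segment is 4.51 to 5.21 FPKM in WT and 20.6 to 25.8 FPKM in KO.

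The genes next to Hmgn2 on chromosome 4 were read from the deposited coordinates. Of the 21 genes within 250 kb, 12 had counts, 2 were called higher in KO (against 4.97% of all genes), none lower and none past 2-fold. Only 6 of the 12 had at least 1 CPM. Both called genes had at least 10 CPM, a level at which 784 of 9378 genes were called higher. Dhdds, 378 bases away and coding for a subunit of the enzyme that makes dolichol, had 44.1 to 45.8 CPM in WT and 44.8 to 47.2 CPM in KO (log2 fold change 0.02, interval -0.15 to 0.20, adjusted p = 0.91). On the other side the nearest protein-coding gene was Rps6ka1, a kinase of the MAP kinase pathway, with 12.2, 11.1 and 11.3 CPM in WT and 16.9, 16.5 and 17.2 CPM in KO (log2 fold change 0.55, SE 0.13, adjusted p = 3.6e-04). Arid1a, a chromatin remodelling subunit 207969 bases away, was the other gene called (log2 fold change 0.24, adjusted p = 0.010), and it was not called under all alternatives, with an adjusted p of up to 0.14.

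Over the 6 libraries, the profiles most like that of Hmgn2 among 9377 other genes with at least 10 CPM were sought by the root mean square distance between log2 CPM values centred on each gene's mean. The 5 nearest were Kdm5d (0.14), a Y-linked histone demethylase, Wnt10b (0.14), a secreted WNT ligand, Lama5 (0.16), a laminin chain, Crabp2 (0.16), a retinoic acid binding protein, and Gjb2 (0.19), a gap junction protein, and the median distance was 1.13. Kdm5d had 5.25, 5.70 and 5.26 CPM in WT and 23.4, 25.3 and 22.6 CPM in KO, a 4.40-fold difference. Lama5 had 15.2 to 22.6 CPM in WT and 90.0 to 100.1 CPM in KO. With 2 groups of 3, likeness of this kind says mainly that the fold changes are of like size.

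Other genes of HMG biology were counted from lists. HMG-box proteins outside the SOX and TCF/LEF families had 1 gene higher and 1 lower of 16 tested, where 4.97% of all genes tested were higher and 4.03% lower, with a median log2 fold change of 0.02 beside 0.01 over all genes tested. Cic, a sequence-reading repressor downstream of receptor tyrosine kinases, was higher (182, 217 and 233 CPM in WT and 255 to 266 CPM in KO, adjusted p = 3.4e-04), and Bbx was lower (log2 fold change -0.24, adjusted p = 0.020, up to 0.25 under the alternatives) with overlapping groups. Ssrp1, a subunit of the FACT histone chaperone and the list's gene of highest FPKM, had a log2 fold change of -0.02 (95% interval -0.15 to 0.11, adjusted p = 0.91).

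The HMG-box factors that read a sequence, the SOX and TCF/LEF families, had 5 genes higher and none lower of 18 tested, 4 of them past 2-fold, where 4.97% of all genes tested were higher and 1.75% past 2-fold. Sox9, the regulator of cartilage formation, had 9.56, 8.20 and 9.98 CPM in WT and 24.4, 24.4 and 23.0 CPM in KO (log2 fold change 1.37, adjusted p = 1.6e-26). Sox5, its partner in cartilage, had 0.428 to 0.627 CPM in WT and 3.25 to 5.77 CPM in KO. Sox11, a factor of progenitor cells, had 29.8 to 33.9 CPM in WT and 51.6 to 57.8 CPM in KO, and Tcf7, a WNT effector, had 1.88 to 3.76 and 5.76 to 7.94 CPM. In all of these the groups lay apart. Of the 18, 9 had under 1 CPM, and the median log2 fold change was 0.80 over the 18 and 0.15 over the 9 with at least 1 CPM, beside -0.01 over all genes at that level.

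Linker histones, with which HMGN proteins compete, had 1 gene higher of 7 tested and none lower, where 4.97% of all genes tested were higher. H1f10 had 26.8, 21.7 and 22.6 CPM in WT and 27.16 to 32.52 CPM in KO (log2 fold change 0.34, adjusted p = 0.012, up to 0.25 under the alternatives); the groups were apart, WT1 just under KO3. H1f0, the linker histone of highest FPKM in these libraries, at 105.8 FPKM in WT and 113 FPKM in KO, was not called (log2 fold change 0.10, adjusted p = 0.52). Receptors of released HMGB1 had 3 genes higher of 7 tested, beside the same 4.97%. Cd24a rose from 33.6 to 40.6 CPM in WT to 57.6 to 60.1 CPM in KO (adjusted p = 2.2e-11), Tlr4 from 2.47 to 3.60 CPM to 5.05 to 6.06 CPM (adjusted p = 9.9e-04), and Sdc1 from 134 to 149.9 CPM to 162 to 171 CPM (adjusted p = 0.032, up to 0.20 under the alternatives). Ager, the receptor named for advanced glycation end products, had 0.505 FPKM in WT and 0.788 FPKM in KO and was not called (adjusted p = 0.40).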

How the data were processed

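RNA-seq of 3 WT and 3 KO MEF libraries was used. Per the methods, the authors aligned read pairs with Hisat2 to the Ensembl 106 mouse genome (GRCm39) and counted them with featureCounts; the submitters' processing notes name HISAT2 2.0.5, featureCounts 1.5.0-p3 and the build GRCm38 (mm10). The handling of multi-mapped reads and of strand is not given in the sources used here. Coordinates are those of the deposited tables. The authors deposited raw counts per gene and FPKM values, which divide the counts by gene length and library depth.

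Genes above 0 FPKM in 1 or more libraries (26898) were tested on their counts with edgeR 4.0.16 (R 4.3.3; quasi-likelihood, TMM, no covariates, Benjamini-Hochberg adjustment over all genes). The prior degrees of freedom came out infinite, which gives each gene the spread of the trend. Genes counted as called had an adjusted p below 0.05, and past 2-fold also a log2 fold change beyond 1. On simulated data with 200 changed genes at a log2 fold change of 2 among 25794, edgeR recovered 200 with 2 false calls and DESeq2 1.42.0 recovered 199 with 0. Recovery of changes smaller than a log2 fold change of 2 was not tested. Intervals are at 95%, and values after ± are SD over 3 libraries. Copies were rows named for a gene with -ps, -rs or b, or pseudogenes described by its protein, and those with a mean of at least 1 CPM are named. Up to 4 called genes are named per list, 5 genes as most like Hmgn2, and the nearest coding gene on each side of it. Transcript sequences came from GENCODE M21 (GRCm38), matched by gene identifier and aligned with BLAST 2.17.0; its coordinates were not used. The members and lists were chosen with earlier results of these data known. Alternatives were DESeq2, RLE scaling, other filters, a robust spread, the replicate number as a block and each library left out. Same-numbered WT and KO libraries did not deviate together (r = -0.026, -0.013 and 0.048 across genes), so the numbers were not taken to pair them. With 3 libraries per group, no library was tested as an outlier. Another marker list is not reported here.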

Additional observations from a re-analysis of the deposited data

How the results depend on the processing

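Of the 8 HMG genes besides Hmgn2, 2 were called with every other tool, scaling, filter and spread, and from 1 to 5 with 1 library left out: 5 without WT1 and 1 without KO1, KO2 or KO3. Hmgn2 kept a log2 fold change between 2.14 and 2.31. With the replicate number as a block the log2 fold change of Hmgn2 was 2.23 and 2 of the 8 genes were called, and the block changed none of the calls of these 8. Over all genes, 1337 higher and 1083 lower calls at the adjusted p alone became 852 and 672 with DESeq2, and lay from 945 to 1644 and from 645 to 1620 with 1 library left out. Genes past 2-fold numbered 472 higher and 179 lower, 388 to 475 and 157 to 196 with 1 library left out. Of the genes on the fixed lists, 14 were called, and 11 to 26 with 1 library left out. Of the neighbours of Hmgn2, 2 were called, 1 with DESeq2 or filterByExpr, and 1 or 2 with 1 library left out. The log2 ratio of the HMGN FPKM sums, 0.16, was 0.0097 without Hmgn2. That of Hmgb1 summed with its copies, -0.27, was -0.093 with the copies found by UniProt entry. The cause of these shifts was not tested, except that the HMGN and Hmgb1 sums then hold other genes and leaving out a library leaves fewer samples. None of the values called with all libraries changed sign, though some near 0 that were not called did so with a library left out, among them Hmgn1, Hmgb3, the HMGB sum and the copy Gm5527. Filtering on at least 1 count kept the same genes as the filter on FPKM. Hmgb1-ps1, the lowest of the named copies, had 20 to 56 counts in a library, and its 95% interval ran from -1.56 to -0.23.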

Other observations

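Genes of the cell cycle, with which Hmga1, Hmga2 and Hmgb2 are commonly expressed, were counted beside all genes tested, of which 4.97% were higher and 4.03% lower in KO. Of 16 S-phase genes, 1 was higher and none lower in KO, with a median log2 fold change of 0.03. The gene was Pcna, the sliding clamp of DNA polymerase, with 223, 197 and 185 CPM in WT and 263 to 268.5 CPM in KO (log2 fold change 0.40, SE 0.07, adjusted p = 5.6e-07). Of 20 G2/M genes, 1 was higher and 1 lower, with a median of -0.04. Plk1, a mitotic kinase, had 109 to 118.5 CPM in WT and 137 to 146 CPM in KO (adjusted p = 8.7e-04), and Kif11, a spindle motor, had 186 to 193 CPM in WT and 156 to 167.5 CPM in KO (adjusted p = 0.012, up to 0.17 under the alternatives). Without WT1, 4 of the 16 and 8 of the 20 were called, where 1644 of all 26898 genes tested were higher and 1620 lower.

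Of 5 tested members of the SET complex, which binds HMGB2, none was called. Anp32b, the most expressed by FPKM, had 239 FPKM in WT and 228 FPKM in KO (log2 fold change -0.07, adjusted p = 0.66), and the median was -0.07. Of 7 tested genes of the let-7 and Hmga2 axis, none was called either, and the median was 0.02. Lin28a, the let-7 blocker that lies 34680 bases from Hmgn2, was at 0 in every library, and Igf2bp2, an RNA-binding protein that Hmga2 is known to activate, had 201 to 213 CPM in WT and 197.5 to 210.3 CPM in KO (adjusted p = 0.94).

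Fibroblast markers summed to 3328 to 3728 FPKM in WT and 3615 to 3732 FPKM in KO. Of other cell types, summed FPKM were 1.87 to 2.81 in WT and 7.07 to 7.80 in KO for epithelial markers. Of these 6, 3 were higher in KO and 2 past 2-fold, where 4.97% of all genes tested were higher and 1.75% past 2-fold. Epcam and Cdh1 were under 1 CPM in every library. Summed FPKM were 0.188 to 0.562 and 0.557 to 0.855 for endothelial, and 0.148 to 0.228 and 0.274 to 0.566 for erythroid markers, with Emcn and the globin genes listed at 0. Neural markers summed to 14.5 to 15.9 FPKM in WT and 20.5 to 21.4 FPKM in KO, with Tubb3 higher in KO and Sox10 at 0. Their part in the results on the HMG genes was not tested.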
